A study of Mus musculus with 6 samples.

Results

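Fatty acid oxidation was followed through 35 genes in RNA-seq of epididymal white adipose tissue (eWAT), the visceral fat pad beside the epididymis, from cachectic and control mice. The genes were taken by name from a list of 35 set by function and not by expression, out of 54532 genes in the count table. The list was drawn up with earlier results of these data known. They comprise 5 genes of fatty acid activation, 7 of the carnitine shuttle, 14 of mitochondrial oxidation, 8 of peroxisomal oxidation and the transcription factor gene Ppara. All 35 were found, and 33 had enough counts to be tested. Values of a gene are listed by replicate number, 1 to 3, in each group. The filter left out Acsl6, with 7, 2 and 1 counts in the control mice and 1, 1 and 0 in the cachectic mice, and Cpt1b, with 1 count in each control mouse and 1, 3 and 5 in the cachectic mice. Neither gene had more than 7 counts in any mouse.

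All 6 mice were C57BL/6, male and 6 to 10 weeks old according to the methods, and no transgene or drug entered either group. The 3 cachectic mice were inoculated under the skin with cells of the mouse Lewis lung carcinoma (LLC) line and were defined as cachectic by a marked loss of body weight. The 3 control mice are labelled as control, and the sources used here do not say whether they received a sham injection or whether any mouse was fasted before harvest. Tissue was taken on day 21.

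Fat cells store fatty acids as triglyceride and release them by lipolysis, and a fatty acid that stays in the cell is activated to an acyl-CoA before it can be stored or burned. Long acyl groups enter the mitochondrial matrix as carnitine esters, where a spiral of dehydrogenation, hydration, oxidation and thiolysis shortens them to acetyl-CoA and passes electrons to the electron transfer flavoprotein. Very long and branched chains are shortened in peroxisomes. White fat oxidizes less than liver, muscle or brown fat, and PPARα is the receptor best known for inducing these enzymes in liver.

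Expression is given as CPM, the count scaled to a common normalized library size, and differences as the log2 fold change with its standard error (SE), positive where cachectic mice were higher, from edgeR's quasi-likelihood test with Benjamini-Hochberg adjustment over 16003 genes. Genes with an adjusted p-value under 0.05 are called higher or lower. The total count per sample lay between 14928766 and 18855546, lower in each of the cachectic mice than in the controls. Adipocyte markers were abundant in each mouse, with a summed level between 36022 and 53748 CPM over 12 genes. Control replicate 1 stood apart in a few genes of this pathway, with 305 counts of Bbox1 and 263 of Slc27a2 beside 0 in both other controls. It also stood apart over all genes. The chi-square per gene between counts was 60.7 and 48.4 against control replicates 2 and 3, and 13 between those 2. Pairs of cachectic mice gave 64.3 to 83.6. Bbox1 makes carnitine, and Slc27a2 encodes a very long chain acyl-CoA synthetase of liver and kidney. With 3 mice in each group an exact permutation test of a single gene cannot give a p-value under 0.1, so calls rest on the fit over all genes. Nothing in the labels says which mice shared a cage, day or sequencing run.

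With all 6 mice, the fatty acid oxidation genes had calls in both directions. Etfb, Eci1 and Eci2 were higher in cachectic mice and Acsl3, Acads and Acaa2 were lower, and the other 27 tested genes did not pass the threshold. The 3 higher genes were 3 of 33, where 9.0% of all genes tested were higher, and the 3 lower genes were 3 of 33, where 8.63% of all genes tested were lower. In either direction 6 of 33 were called (18.2%), beside 17.6% of all genes, so the share was near the background. The median log2 fold change of the 33 genes was 0.15, beside -0.003 over all genes tested, with 19 genes above 0 and 14 below. The groups did not overlap in 9 genes that were higher and 5 that were lower, where all genes gave 20.4% and 20.1% (40.5% in either direction). An unadjusted p-value under 0.05 was reached by 9 of the 33 genes upward and 5 downward, beside 17.4% and 17.0% of all genes.

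**Figure D1:**
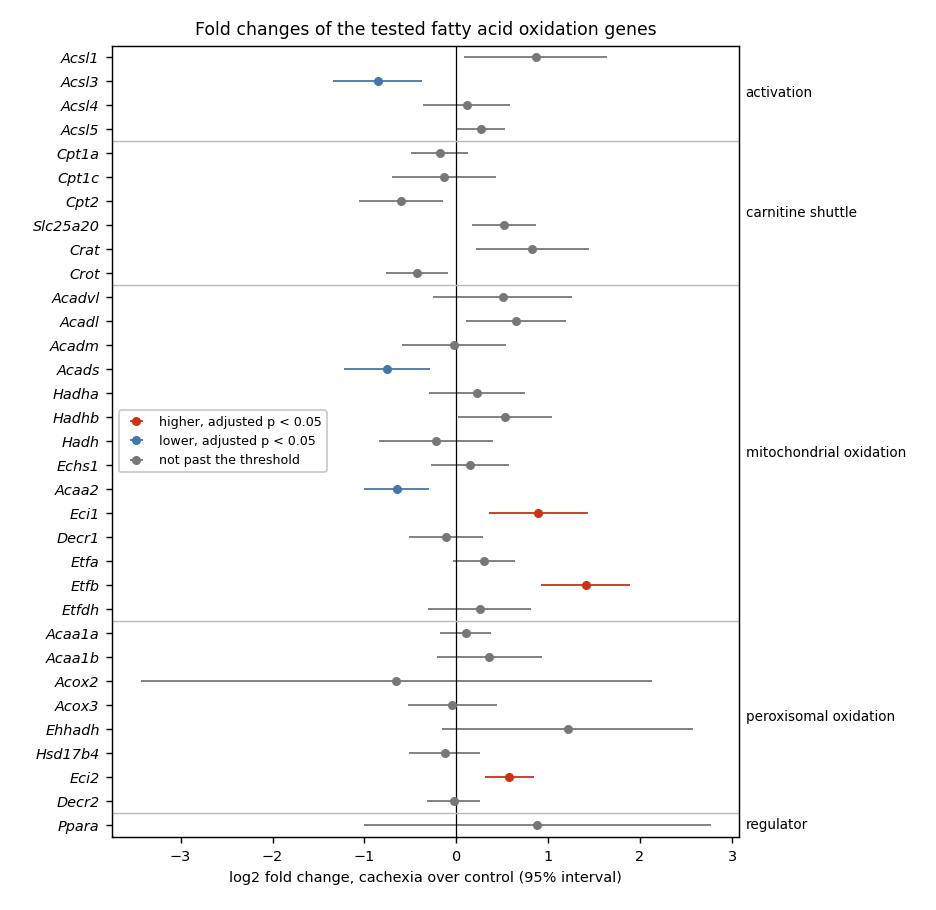
Log2 fold change of cachectic over control mice (horizontal axis) for the 33 tested fatty acid oxidation genes, ordered by step, with points for edgeR's estimate and bars for its 95% interval. Red marks the 3 genes called higher (Etfb, Eci1, Eci2), blue the 3 called lower (Acsl3, Acads, Acaa2) and grey the other 27, and the widest intervals are those of Acox2, Ppara and Ehhadh.

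The promoter windows of the called genes are shown because the calls went in both directions, and the divergent pair Hadha and Hadhb is added. As the number of calls was near the share over all genes, the windows serve as a description. The windows hold the 250 bases before the annotated start, in RefSeq's GRCm38.p6, 5′ to 3′ on the strand of the gene. These starts can differ from the gene bounds in the count table, and the Eci2 window lies inside the Eci2 gene as counted. At least 1 window was found for 30 of the 35 genes, and Acaa2 is named only. Capitals mark the CCAAT box and the GC box, spelled GGGCGG, in either orientation, so that a box on the other strand appears as its reverse complement.
Etfb, chr7:43443822-43444071, strand +: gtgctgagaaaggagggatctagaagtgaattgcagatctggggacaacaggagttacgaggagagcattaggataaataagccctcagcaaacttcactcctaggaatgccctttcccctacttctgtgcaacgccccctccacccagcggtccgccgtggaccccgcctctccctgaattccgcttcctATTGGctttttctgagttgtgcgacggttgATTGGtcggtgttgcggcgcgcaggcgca
Eci1, chr17:24426433-24426682, strand +: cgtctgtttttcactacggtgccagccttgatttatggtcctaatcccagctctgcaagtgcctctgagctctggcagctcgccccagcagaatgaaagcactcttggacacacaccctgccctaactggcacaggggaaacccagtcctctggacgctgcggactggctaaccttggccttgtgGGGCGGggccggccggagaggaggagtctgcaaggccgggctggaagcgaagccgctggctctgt
Eci2, chr13:34994145-34994394, strand -: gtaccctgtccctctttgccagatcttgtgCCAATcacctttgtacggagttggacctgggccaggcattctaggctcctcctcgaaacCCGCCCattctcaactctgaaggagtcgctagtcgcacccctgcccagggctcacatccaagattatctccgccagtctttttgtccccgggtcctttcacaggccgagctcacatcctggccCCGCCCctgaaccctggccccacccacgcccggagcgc
Acsl3, chr1:78657575-78657824, strand +: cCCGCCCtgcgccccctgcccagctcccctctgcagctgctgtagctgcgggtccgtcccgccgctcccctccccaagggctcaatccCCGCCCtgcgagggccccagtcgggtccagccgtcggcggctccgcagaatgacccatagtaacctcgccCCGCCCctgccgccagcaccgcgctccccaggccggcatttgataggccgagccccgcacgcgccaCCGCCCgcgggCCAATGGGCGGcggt
Acads, chr5:115119347-115119596, strand -: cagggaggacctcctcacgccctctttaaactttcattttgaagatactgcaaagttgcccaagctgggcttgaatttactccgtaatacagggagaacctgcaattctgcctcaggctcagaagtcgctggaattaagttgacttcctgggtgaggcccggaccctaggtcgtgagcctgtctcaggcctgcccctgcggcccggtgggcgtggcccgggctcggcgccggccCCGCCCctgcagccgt
Hadhb, chr5:30155003-30155252, strand +: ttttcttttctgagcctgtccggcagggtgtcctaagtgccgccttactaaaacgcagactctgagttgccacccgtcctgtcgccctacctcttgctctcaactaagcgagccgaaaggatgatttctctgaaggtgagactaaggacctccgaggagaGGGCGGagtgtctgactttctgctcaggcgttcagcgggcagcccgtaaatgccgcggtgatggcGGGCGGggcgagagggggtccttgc

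Genes with several annotated starts have several windows, so the 30 genes hold 34. A GC box was present in 24 of the 34 windows and in 32.74% of the 32851 windows of all genes, and a CCAAT box in 17 of 34 and in 33.85% of all. The windows of all genes include genes too low to be tested here, and the 34 include those of Acsl6. The share among tested genes alone was not counted. Of the called genes with a window, Etfb had 2 CCAAT boxes and no GC box, Eci1 and Acads had 1 GC box each and no CCAAT box, and Eci2 and Acsl3 had both kinds. Higher and lower genes thus both held GC boxes. The consensus of a PPAR response element, AGGTCA repeated with 1 base between the copies, was found on either strand with at most 2 mismatches in 2 of 34 windows, those of Echs1 and Etfa, and in 3.24% of all windows. The single AGGTCA, which it contains, stood in 6 of 34 windows and in 14.02% of all. Neither Echs1 nor Etfa passed the threshold. Hadha and Hadhb face away from each other. The starts used for their windows, which differ from their bounds in the count table, lie 272 bases apart. Their windows share 228 bases, so the Hadhb window also shows most of that of Hadha on the other strand.

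Activation was carried mostly by Acsl1. Acsl genes encode the long chain acyl-CoA synthetases, and Acsl1 is the main form of fat cells. Acsl1 had 512, 929.7 and 1016 CPM in the control mice and 1968, 1485 and 1012 in the cachectic mice. The groups overlapped, because cachexia replicate 3 lay just under the highest control, and control replicate 1 was far under both other controls. The log2 fold change was 0.86 (SE 0.33, adjusted p = 0.113 in edgeR's test). Per kb of gene length Acsl1 took 64.6%, 77.5% and 78.6% of the summed Acsl level in the control mice and 88.6%, 83.6% and 76.9% in the cachectic mice.

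Acsl3, a synthetase tied to lipid droplet formation, moved the other way. It had 28.0, 20.2 and 21.5 CPM in the control mice and 10.3, 15.8 and 12.4 in the cachectic mice, so every cachectic mouse was lower. Its log2 fold change was -0.86 (SE 0.21, adjusted p = 0.0295 in edgeR's test). The gene lies on chromosome 1 from 78657825 to 78707743 and shares 5.6% of its exon bases with Utp14b on the same strand, whose counts were also lower in each cachectic mouse (32 to 50, beside 87 to 148 in the controls). The share of Utp14b reads in the Acsl3 count was not tested. The call was lost without any 1 control mouse and without cachexia replicate 1 or 3 (adjusted p from 0.0604 to 0.0851 in edgeR's test).

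Acsl4 and Acsl5 differed less. Acsl4, which prefers arachidonic acid, had 41.8, 53.4 and 54.6 CPM in the control mice and 40.9, 52.4 and 68.6 in the cachectic mice, with overlapping groups and a log2 fold change of 0.11 (SE 0.20, adjusted p = 0.738 in edgeR's test). Acsl5, a synthetase of mitochondria and endoplasmic reticulum, had 60.8, 54.6 and 54.8 CPM in the control mice and 69.5, 70.3 and 65.4 in the cachectic mice. All 3 cachectic mice were above all 3 controls in Acsl5, by a small margin (log2 fold change 0.27, SE 0.11, adjusted p = 0.135 in edgeR's test).

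**Figure D2:**
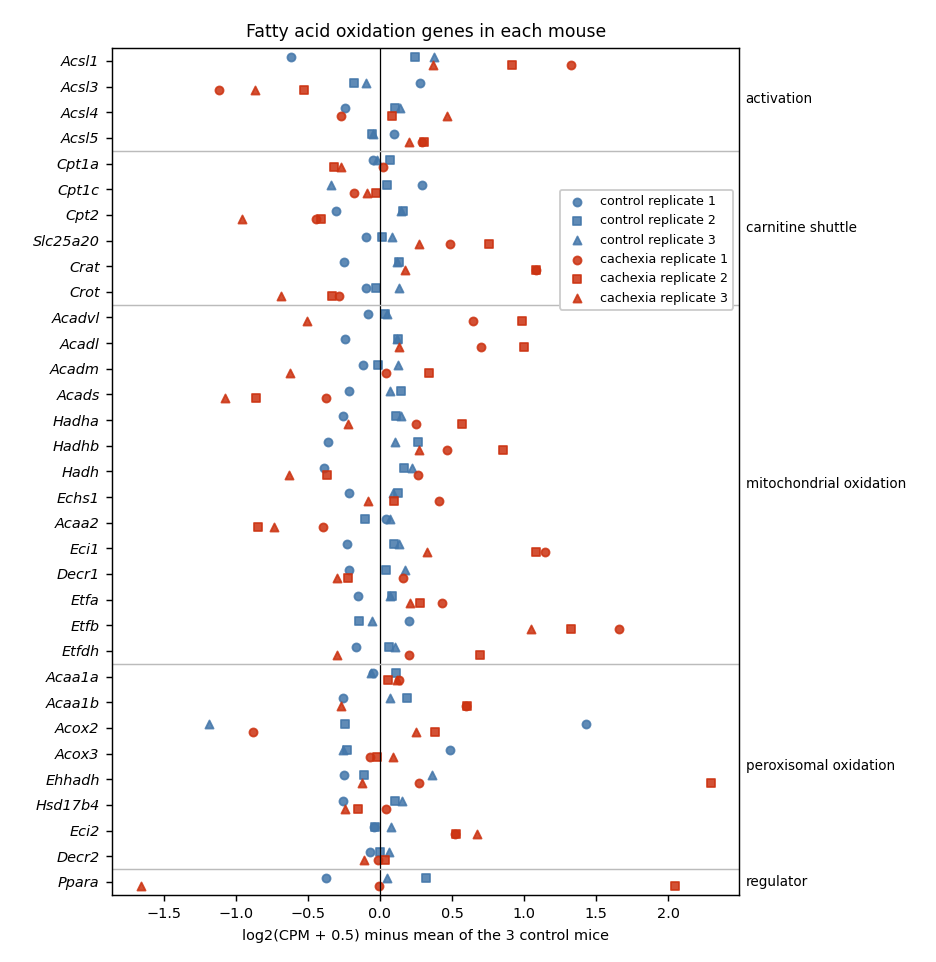
Each tested gene in each mouse, as log2(CPM + 0.5) minus the mean of the 3 control mice (horizontal axis), with blue for control and red for cachectic mice and the symbol giving the replicate. Cachexia replicate 3 (red triangles) is the lowest cachectic mouse in 13 of the 14 mitochondrial genes, and cachexia replicate 2 (red squares) stands far to the right in Ehhadh and Ppara.

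No gene of the carnitine shuttle passed the threshold. Of its 6 tested genes, 2 had every cachectic mouse above every control and 2 had every cachectic mouse below. Over all genes tested these shares were 20.4% and 20.1%. Cpt1a, the outer membrane transferase that malonyl-CoA inhibits, had 96.6, 105 and 98.1 CPM in the control mice and 101, 79.8 and 82.5 in the cachectic mice (log2 fold change -0.18, SE 0.13, 95% interval -0.50 to 0.13, adjusted p = 0.378 in edgeR's test). Cpt1c, the neuronal form, stayed under 9 CPM in every mouse, with a log2 fold change of -0.13. Cpt2, the inner membrane transferase that returns acyl groups to CoA, and Crot, the peroxisomal carnitine octanoyltransferase, had every cachectic mouse below every control. Cpt2 had 123, 169.9 and 168 CPM in the control mice and 111, 114 and 77.9 in the cachectic mice, a log2 fold change of -0.60 (SE 0.20, adjusted p = 0.0735 in edgeR's test). Crot had a log2 fold change of -0.43 (SE 0.15, adjusted p = 0.0794 in the same edgeR test).

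The carnitine-acylcarnitine exchanger and the carnitine acetyltransferase had values in the opposite direction. Slc25a20, the exchanger of the inner membrane, had 55.8, 60.4 and 63.5 CPM in the control mice and 83.8, 101 and 72.4 in the cachectic mice, and all 3 cachectic mice were above the controls. Its log2 fold change was 0.52 (SE 0.15, adjusted p = 0.0503 in edgeR's test), just outside the threshold. Crat, which buffers acetyl-CoA as acetylcarnitine, had 245, 319 and 315 CPM in the control mice and 617, 616 and 329 in the cachectic mice (log2 fold change 0.83, SE 0.26, adjusted p = 0.067 in edgeR's test). Replicates 1 and 2 of the cachectic mice were nearly equal in Crat and replicate 3 sat just above the controls. Per kb of gene length, the level of Crat was 4.53, 5.63 and 4.97 times that of Crot in the control mice and 13.0, 13.4 and 9.21 times in the cachectic mice, a ratio chosen after its values were seen and not tested. Of the shuttle genes, those given mouse by mouse beyond Cpt1a were also chosen in this way.

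Within mitochondrial oxidation, only the short chain member of the 4 listed acyl-CoA dehydrogenases was called. Acadvl, Acadl, Acadm and Acads act on very long, long, medium and short chains. Acadl had 164, 211 and 210.4 CPM in the control mice and 315, 388 and 213 in the cachectic mice, a log2 fold change of 0.65 (SE 0.23, adjusted p = 0.0955 in edgeR's test), while Acadvl had 0.50 (SE 0.33) with overlapping groups. Acadm had overlapping groups (-0.03, SE 0.25, 95% interval -0.60 to 0.54). It had 355, 381 and 420.1 CPM in the control mice and 395, 488 and 249.7 in the cachectic mice. Cachexia replicate 2 was thus above all controls and cachexia replicate 3 below them. Acads was lower, with 111, 143 and 135 CPM in the control mice and 99.7, 70.8 and 61.1 in the cachectic mice, and no cachectic mouse reached a control. Its log2 fold change was -0.75 (SE 0.20, adjusted p = 0.0404 in edgeR's test), on chromosome 5 from 115110299 to 115119346. The call of Acads was lost without control replicate 2 or 3 and without cachexia replicate 2 or 3 (adjusted p from 0.088 to 0.128 in edgeR's test). The difference between chain lengths was not tested, and 42.9% of the exon bases of Acadvl overlap Dvl2 on the other strand.

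Acaa2, the thiolase that ends the spiral for medium and short chains, was lower too. It had 141, 127 and 143 CPM in the control mice and 104, 76.0 and 81.9 in the cachectic mice, with every cachectic mouse below every control. The log2 fold change was -0.65 (SE 0.15, adjusted p = 0.0261 in edgeR's test). The gene lies on chromosome 18 from 74779197 to 74806207, and its call was lost without any 1 control mouse and without cachexia replicate 2 or 3 (adjusted p from 0.0573 to 0.103 in edgeR's test). Hadh, the short chain hydroxyacyl-CoA dehydrogenase, had 242, 356 and 371 CPM in the control mice and 381, 245 and 205 in the cachectic mice, a log2 fold change of -0.22 (SE 0.27) with widely overlapping groups, and Echs1, the short chain hydratase, had 0.15 (SE 0.18).

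The subunits of the trifunctional protein, which takes long chains through hydration, oxidation and thiolysis, showed no call. Hadha had 204, 264 and 269 CPM in the control mice and 289.9, 362 and 209 in the cachectic mice (log2 fold change 0.22, SE 0.23), and Hadhb had 154, 237 and 212 in the control mice and 274, 358 and 238 in the cachectic mice (0.53, SE 0.22, adjusted p = 0.133 in edgeR's test). In both genes cachexia replicate 2 was highest, cachexia replicate 3 lowest of its group and control replicate 1 lowest of all. The pair shares the promoter window shown above. Of the 75-base stretches of Hadhb transcripts, 16.7% also occur in other genes, chiefly Gm13910 and Gm9108.

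The auxiliary enzyme of unsaturated fatty acids, Eci1, was higher. Eci1 moves double bonds so that oleic acid and its like can enter the spiral. It had 101, 126 and 130 CPM in the control mice and 262, 251 and 148 in the cachectic mice. All 3 cachectic mice exceeded the controls, replicate 3 by far the least (log2 fold change 0.89, SE 0.23, adjusted p = 0.0366 in edgeR's test). The gene lies on chromosome 17 from 24426683 to 24439316. Its call was lost without any 1 control mouse and without cachexia replicate 1 or 2 (adjusted p from 0.09 to 0.103 in edgeR's test). Decr1, the mitochondrial dienoyl-CoA reductase of the same branch, had a log2 fold change of -0.12 (SE 0.17).

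Etfb showed the largest called change among the 33 genes. Etfb and Etfa encode the subunits of the electron transfer flavoprotein, which accepts electrons from all acyl-CoA dehydrogenases, and Etfdh passes them on to ubiquinone. Etfb had 9.23, 7.16 and 7.65 CPM in the control mice and 26.2, 20.7 and 17.0 in the cachectic mice. Each cachectic mouse was well above each control (log2 fold change 1.41, SE 0.21, adjusted p = 0.00587 in edgeR's test), and the call held in all 16 other settings, with adjusted p-values up to 0.0378. Etfa, its partner, had 216, 254 and 252 CPM in the control mice and 324, 291 and 277 in the cachectic mice, a smaller difference with groups that did not overlap (0.30, SE 0.15, adjusted p = 0.183 in edgeR's test), and Etfdh had 0.25 (SE 0.24).

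The low level of Etfb beside its partner is uncertain. Per kb of gene length Etfa was 14.9, 22.5 and 20.9 times as high as Etfb in the control mice and 7.84, 8.92 and 10.4 times in the cachectic mice. Etfb lies on chromosome 7 from 43444083 to 43457800, and 53.0% of its exon bases also belong to Gm45233 on the same strand, a gene with 0 counts in every mouse. Of the 75-base stretches of its transcripts, 39.6% occur in Gm45233. Whether reads in the shared bases were left out of the count was not tested. Cpt1b, the muscle form of the outer transferase, has the same situation, with 81.4% of its exon bases in Gm44502, also at 0 in every mouse, so its 1 to 5 counts cannot be read as its level.

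**Figure D3:**
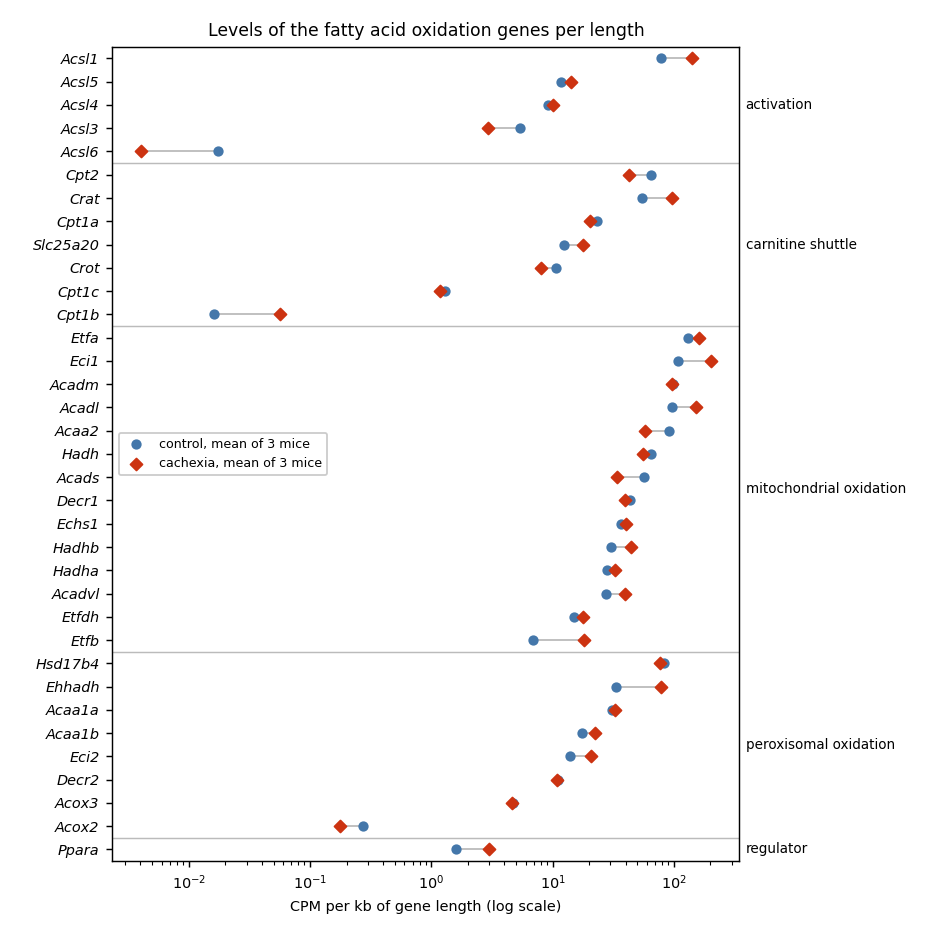
Mean level of all 35 genes in 3 control mice (blue circles) and 3 cachectic mice (red diamonds), as CPM per kb of gene length on a log axis, sorted within each step by the control level. By the deposited gene lengths, Etfa, Eci1, Acadm, Acadl and Acaa2 hold the highest control levels. Acsl6 and Cpt1b lie far to the left of all others in both groups.

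Per length, the pathway was led by the mitochondrial spiral in both groups. In control mice the highest mean levels were those of Etfa (131 CPM per kb), Eci1 (109), Acadm (98.5), Acadl (97.3) and Acaa2 (90.4), and in cachectic mice those of Eci1 (202), Etfa (162), Acadl (152) and Acsl1 (142). Acaa2 fell to a mean of 57.6 CPM per kb. These orders were not tested, and they depend on the gene length used. The deposited length of Eci1 is 1091 bases, while the annotation GENCODE M21 gives it 2127 exon bases. With the longer length Eci1 would rank lower in both groups. The summed level of the 5 activation genes lay between 75.5 and 123 CPM per kb in control mice and between 126 and 212 in cachectic mice, and it rested on Acsl1. The sums of the carnitine shuttle (142 to 179 against 136 to 212), of the 14 mitochondrial genes (735 to 899 against 754 to 1118) and of the 8 peroxisomal genes (172 to 212 against 185 to 332) overlapped between the groups.

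**Figure D4:**
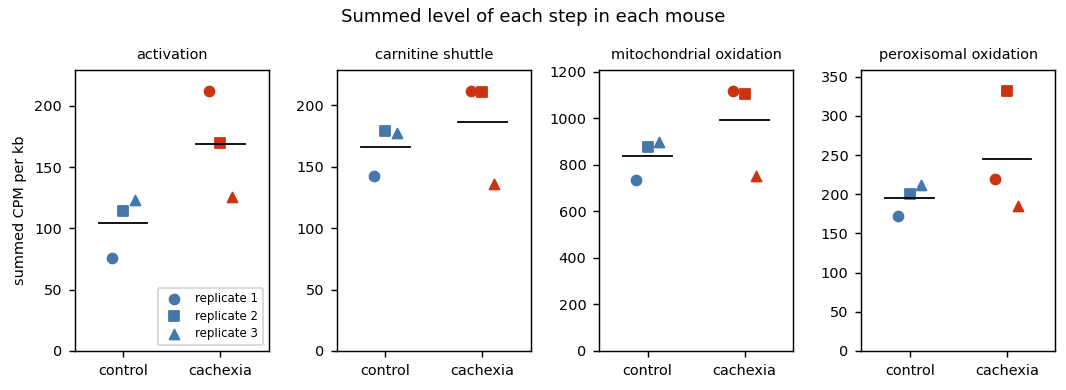
Summed level of the genes of each step in each mouse, in CPM per kb of gene length, with symbols for the replicates and a line at the mean of 3 mice. The mitochondrial sums of cachexia replicates 1 and 2 (1118 and 1107) exceed the controls (735 to 899), and that of replicate 3 (754) lies within them.

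In peroxisomes, Eci2 was the only gene called among 8 tested. Eci2 encodes the peroxisomal counterpart of Eci1. It had 74.7, 75.4 and 81.3 CPM in the control mice and 111, 111 and 123 in the cachectic mice, and the spread within each group was small. The log2 fold change was 0.58 (SE 0.12, adjusted p = 0.016 in edgeR's test), on chromosome 13 from 34977748 to 35027096. The call was lost without control replicate 2 or control replicate 3 (adjusted p = 0.0727 and 0.0701 in edgeR's test). Cachexia replicate 3 was the highest of its group here, as in Acox3 and Acsl4 and in no other of the 33 genes.

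Ehhadh, the bifunctional enzyme of straight chains and dicarboxylic acids, varied widely among the cachectic mice. It had 82.8, 91.4 and 127 CPM in the control mice and 119, 487 and 90.3 in the cachectic mice. A single mouse, cachexia replicate 2, was high, and both others lay within the range of the controls (log2 fold change 1.21, SE 0.59, adjusted p = 0.191 in edgeR's test). Without that mouse the log2 fold change was 0.07. Hsd17b4, the bifunctional enzyme of branched chains, had the highest peroxisomal level in controls (83.0 CPM per kb) and a log2 fold change of -0.12 (SE 0.17).

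The peroxisomal thiolases and oxidases gave no call. Acaa1a had a log2 fold change of 0.10 (SE 0.12, 95% interval -0.18 to 0.38) and its near copy Acaa1b 0.36 (SE 0.25). The copies can exchange reads, since 24.4% of the 75-base stretches of Acaa1b and 9.5% of those of Acaa1a occur in the other. Acox3, an oxidase of branched chains, had 74.3, 45.0 and 44.2 CPM in the control mice and 50.3, 52.0 and 56.3 in the cachectic mice, so control replicate 1 was the highest of all mice (-0.04, SE 0.21). Without that mouse it was 0.24. Acox2, the oxidase of bile acid intermediates, had 51, 8 and 0 counts in the control mice and 2, 16 and 13 in the cachectic mice, and its log2 fold change of -0.65 (SE 1.20) became 1.47 without control replicate 1. Decr2, the peroxisomal dienoyl-CoA reductase, had overlapping groups (-0.03, SE 0.12, 95% interval -0.32 to 0.26).

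Ppara itself was low and rested on the same mouse as Ehhadh. It had 4.57, 7.68 and 6.29 CPM in the control mice and 6.01, 26.5 and 1.57 in the cachectic mice. Cachexia replicate 2 was the highest and cachexia replicate 3 the lowest of all 6 mice (log2 fold change 0.88, SE 0.82, adjusted p = 0.488 in edgeR's test), and without cachexia replicate 2 the sign turned (-0.69). Cox8b, Cidea and Cyp4a10, chosen after their values were seen, were also highest in cachexia replicate 2. Cox8b, a brown fat and muscle subunit of cytochrome oxidase, had 34.7 CPM there beside 2.03 to 5.37 in the other mice, and Cidea, a lipid droplet gene of brown fat, had 6.69 beside 0 to 2.29. Cyp4a10, a fatty acid hydroxylase and target of PPARα, had 30 counts there and at most 8 elsewhere. Of the 8 brown or beige markers 5 were tested, and Dio2, which activates thyroid hormone, was called lower (19, 28 and 36 counts in the control mice and 1 in each cachectic mouse) and none higher. Zic1 was at 0 in all mice and Ucp1 had at most 1 count, and the sum of the 8 was 96.1 to 195 CPM in control and 158 to 349 in cachectic mice.

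The cachectic mice differed among themselves more than the group means show. Cachexia replicate 3 was the lowest cachectic mouse in 24 of the 33 genes (72.7%), where it was the lowest in 37.5% of all genes tested, and in 13 of 14 mitochondrial genes (92.9%), Hadha, Acadm and Acads included. The exception was Acaa2. In that mouse 11 of the 33 genes were above all controls and 14 below, beside 17 above in each of replicates 1 and 2, with 6 and 7 below. Over all genes the share above was 34.5%, 36.4% and 37.6% in cachexia replicates 1 to 3 and the share below 34.6%, 36.0% and 37.9%, so replicate 3 (33.3% above and 42.4% below) was near them. The median difference from the control mean was 0.20 and 0.31 in cachexia replicates 1 and 2 and -0.11 in replicate 3, on the log2(CPM + 0.5) scale. Control replicate 1 was likewise the lowest control in 25 of 33 genes (75.8%, beside 40.5% of all genes). These shares are descriptions, as genes of a pathway are not independent.

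The number of calls changed with single mice. Without cachexia replicate 3, 8 genes were higher and 0 lower in edgeR's test (7.25% and 6.92% of all genes tested), the higher ones being Slc25a20, Crat, Acadvl, Acadl, Eci1, Etfb, Acaa1b and Eci2. Without control replicate 2 (3.62% of all genes higher, 4.3% lower) or control replicate 3 (2.31% and 2.7%), Etfb alone was called. With library totals 5 were higher and 2 lower (9.23% and 7.19% of all genes), with DESeq2 7 and 4 (12.2% and 12.1%), and with the replicate numbers as a block 2 and 1 (5.71% and 6.05%). The direction of the 6 called genes was the same in all 16 other settings.

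Markers of other cells moved with the groups. Of the neutrophil markers 10 of 12 were higher (summed 33.5 to 55.2 CPM in control and 270 to 849 in cachectic mice), of the erythroid markers 6 of 6 tested (252 to 451 against 1334 to 2856) and of the endothelial markers 6 of 10 (1842 to 1916 against 2817 to 3853). Over all genes tested, 9.0% were higher and 8.63% lower. Most neutrophil markers had under 10 counts in some mouse. With at least 10 counts required in every sample, 4 of them were tested and 3 were higher. Left-out mice changed these numbers of calls. Without control replicate 1 or 3, 6 neutrophil markers were higher. The endothelial count was 1 without control replicate 2 or 3, 3 without control replicate 1 or cachexia replicate 1, 4 without cachexia replicate 2 and 9 without cachexia replicate 3. Fat progenitor markers (2 higher and 3 lower of 10) summed to 5323 to 6066 CPM in control and 2574 to 3477 in cachectic mice. Per kb of gene length their sums were 817 to 910 and 583 to 695, and their median log2 fold change was -0.19. Macrophage (2 higher and 1 lower of 10, 1579 to 1978 against 1323 to 2055), mesothelial (0 of 8, 352 to 409 against 167 to 385) and adipocyte sums (2 higher and 1 lower of 12) overlapped between the groups. Skeletal muscle markers summed to at most 60.3 CPM, with Myh4 at 0 in every mouse, and the 8 epididymis markers to at most 4.26 CPM, with none tested. In bulk tissue fewer cells of a type and less RNA per cell cannot be told apart, and the part of these cells in the values of the oxidation genes was not tested.

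Genes around the pathway were counted in 8 lists by function. Over all genes tested, 9.0% were called higher and 8.63% lower. Among 13 tested target genes of PPARα outside the oxidation enzymes, 8 were higher and 0 lower, with a median log2 fold change of 1.10. The count was 5 of 14 without control replicate 2 and 4 of 14 without control replicate 3, and 6 to 8 without any 1 of the other mice. Pdk4, which spares pyruvate from oxidation, had 34.0, 44.9 and 42.4 CPM in the control mice and 197, 810.1 and 585 in the cachectic mice (log2 fold change 3.71). Vnn1, a pantetheinase, had 3.66. The genes were placed in the list from general knowledge, but with earlier results of these data known, so the list is not independent of them. Some of these genes are also controlled by other factors, and the activity of the receptor was not measured. Among the 11 tested PPAR receptors, partners and coactivators, Lpin1 (1.11) and Rxrb (0.78) were higher and none was lower, and Pparg (-0.28) and Ppargc1a (-0.55) did not pass. Without control replicate 3, 0 of these 11 were called. Without control replicate 2, 1 of 12 was higher and 1 lower.

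The control of CPT1 by malonyl-CoA had calls in both directions, 3 higher and 1 lower of 10 (9.0% and 8.63% of all genes). Acacb, the acetyl-CoA carboxylase of the mitochondrial surface that makes malonyl-CoA, had 229, 282 and 328 CPM in the control mice and 648, 1100 and 700.3 in the cachectic mice (log2 fold change 1.54). Mlycd, which breaks malonyl-CoA down and is also counted among the PPARα targets, had 0.95, so a maker and a remover of the inhibitor were both higher. Prkag1, a regulatory subunit of AMP-activated kinase, had 0.74, and Mid1ip1, which promotes polymerization of acetyl-CoA carboxylase, was lower at -2.36. Of 6 tested genes of carnitine supply, the importer Slc22a5 alone was called (0.76), and 0 were called without control replicate 3.

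Other enzymes of acyl-CoA metabolism had more calls upward than downward, where all genes gave 9.0% higher and 8.63% lower. Of 15 further acyl-CoA dehydrogenases, thiolases and helpers, 6 were higher and 1 lower (median 0.46), led by Acad11 (1.46), Acad12 (1.31) and Hsd17b10 (1.30), with Acad9, an assembly factor of complex I, at -0.83. Of 15 thioesterases and short or medium chain synthetases, 6 were higher and 1 lower (median 0.47). With at least 10 counts required in every sample, 13 were tested, and 5 were higher and 1 lower. Acot3, a peroxisomal thioesterase, had 9, 0 and 0 counts in the control mice and 152, 169 and 107 in the cachectic mice, Acsm3 and Acot4 had log2 fold changes of 3.09 and 2.69, and Acss2, which activates acetate, was lower at -1.93. The difference in share between these lists and the 33 genes was not tested.

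Calls in peroxisome biogenesis and import were near or a little above the share over all genes (17.6%). Of 16 peroxins, the assembly factors of peroxisomes, 3 were higher, Pex6 (1.00) and Pex14 (0.69) among them, and none was lower (18.8%). The peroxin count was 1 without any 1 control mouse or cachexia replicate 2, 5 with library totals and 6 with DESeq2. Of 13 tested genes of import and accessory steps 3 were called (23.1%). In this list 0 were called without control replicate 3, and 1 was higher and 0 lower without control replicate 2 or cachexia replicate 2. Phyh, which starts the α-oxidation of branched chains, was higher (0.97). Abcd2, an importer of very long chain acyl-CoA, was lower, with 714, 968 and 1108 CPM in the control mice and 504, 402 and 249 in the cachectic mice (-1.27), and so was the cofactor carrier Slc25a17 (-0.48).

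**Figure D5:**
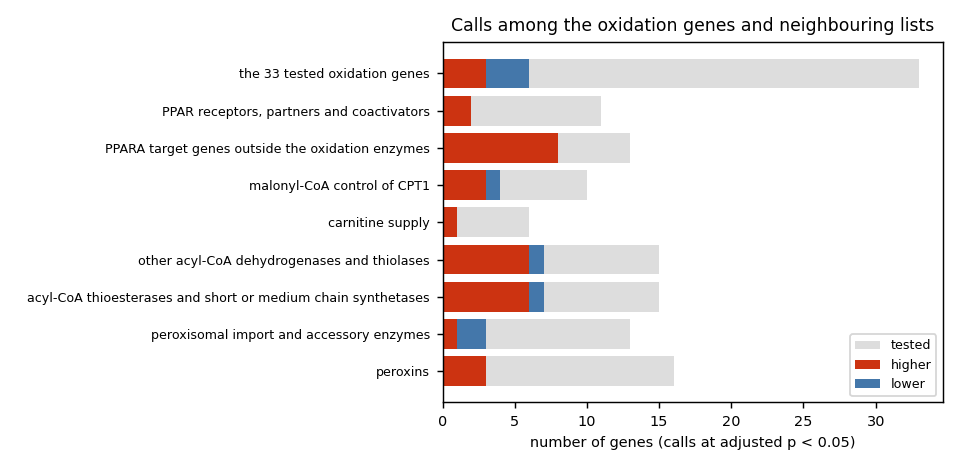
Number of genes tested (grey), called higher (red) and called lower (blue) in edgeR's test, for the 33 oxidation genes and 8 lists around the pathway. The PPARα targets outside oxidation have 8 of 13 genes higher, beside 3 of 33 for the oxidation genes and 9.0% of all genes tested. All lists were drawn up with earlier results of these data known, and differences between them were not tested.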

How the data were processed

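RNA-seq of eWAT from 3 cachectic and 3 control mice was analyzed, with groups taken from the sample labels. Libraries were made with the NEBNext Ultra kit. The authors aligned the paired-end reads with Hisat2, counted them per gene with featureCounts (1.5.0-p3 in the submitters' processing notes) and deposited raw counts without normalization, together with FPKM values calculated from count and gene length. The strand setting of the counting is not given in the sources used here. The processing notes name mm9, but 98.3% of the genes matched by identifier have the coordinates of GENCODE M21, an annotation of GRCm38, so coordinates are those of the files, on GRCm38. The authors' deposited table of DESeq2 fold changes and p-values was not used, nor were its 6 columns of per-sample values and 2 of group means.

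edgeR 4.0.16 in R 4.3.3 was applied to the raw counts (TMM normalization, genes kept by filterByExpr, quasi-likelihood F test, two-sided, Benjamini-Hochberg adjustment over 16003 genes, threshold 0.05). The SE is the log2 fold change divided by the square root of F. Plotted log2 CPM used a pseudocount of 0.5. The biological coefficient of variation was 0.264. Levels of different genes were compared as CPM per kb of the deposited gene length. The oxidation genes and all gene lists were chosen with earlier results of these data known, so they are described by counts and medians without a list test. Every oxidation gene is accounted for. The called genes and the genes of steps with 4 or fewer tested genes are given mouse by mouse, and so are genes chosen after their values were seen, beyond the called ones. From each list around the pathway at most 3 called genes in each direction with the largest change are named. No 2 libraries agreed within sampling noise. That the labels call the samples separate mice is all that is known of their independence. The scripts were tested on simulated counts. The 16 other settings were RLE size factors, library totals, no filter, at least 10 counts in every sample, DESeq2 1.42.0, limma-voom (limma 3.58.1), protein-coding genes only, log2 FPKM (pseudocount 1 or 0.1), the replicate number as a block, and each mouse left out. Some single genes of the lists are not reported here.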

Additional observations from a re-analysis of the deposited data

How the results depend on the processing

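With 3 mice in each group, the calls of single oxidation genes changed with single libraries, and the cause was not tested. The number of oxidation genes called higher was 5 with library totals and 7 with DESeq2, and it ranged from 1 to 8 when each mouse was left out. The number called lower was 1 with the replicate block and ranged from 0 to 2 when each mouse was left out. Over all genes, the block gave 913 higher and 968 lower. Leaving out each mouse gave 382 to 1197 higher and 446 to 1142 lower, with 382 and 446 without control replicate 3 and 600 and 712 without control replicate 2. The median of the peroxisomal genes was 0.14 with the block and 0.21 with limma-voom and ranged from 0.018 to 0.24 when each mouse was left out, while that of the carnitine shuttle ranged from -0.25 to -0.086. Medians of all 33 genes and of the activation and mitochondrial genes stayed within 1 SD between mice in each of the 16 settings.

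Taken gene by gene and setting by setting, 469 log2 fold changes kept their direction and their side of the threshold, 27 fell out of it, 16 came to pass it and 15 reversed, the last all in genes that did not pass. With library totals Acadm became 0.027 and Decr2 0.023. With each mouse left out, Acadm reached 0.20 without cachexia replicate 3 and 0.034 without control replicate 3, and its lowest value was -0.25. Decr2 ranged from -0.065 to 0.016 (0.00043 without control replicate 3), Acsl4 from -0.093 to 0.28 (-0.0014 without control replicate 1), Cpt1c from -0.30 to 0.036, Acox2 from -1.22 to 1.47, Acox3 from -0.18 to 0.24, Etfdh from -0.028 to 0.47 and Ppara from -0.69 to 1.40. Acox2 was 0.17 with the block and 0.53 with limma-voom. With DESeq2, 69 adjusted p-values were NA. Acsl3 also lost its call with library totals, and Eci1 on both FPKM scales.

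Same-numbered mice did not deviate together over all genes (correlations of -0.0031, -0.011 and 0.0085). Such correlations cannot show whether same-numbered mice shared a cage, day or run, and this was not tested. With the block Etfb, Eci2 and Acaa2 were called. At this depth the 2 genes left out by the filter, Acsl6 and Cpt1b, could not be compared.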
